A study of Mus musculus with 28 samples.

Results

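The genes described here are 10 of the 23038 genes listed for the mouse brain in the deposited tables. They encode the heat shock factor HSF1, which switches heat shock genes on, and 9 chaperones: the stress-inducible HSP70 copies *Hspa1a* and *Hspa1b*, *Hsph1*, *Dnajb1*, *Hsp90aa1*, *Hsp90ab1*, *Hspb1*, *Hspa8* and *Hspa5*. They were selected on the measured values of *Hspa1b*, which had the smallest p-value of all genes between genotypes in embryonic midbrain in an earlier analysis of these libraries, and the other 9 were added to it as heat shock genes. The genotype values of embryonic midbrain are therefore given as a description, without a test. The question asked of the remaining data was whether *Hspa1b* moves with the other heat shock genes.

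RNA-seq libraries came from brain of mice homozygous for the hu allele of *Nova1* (*Nova1* hu/hu) or for its wild-type allele (*Nova1* wt/wt) on a BL6 background (C57BL/6J). *Nova1* encodes a neuronal RNA-binding protein that regulates splicing, and the hu allele is a CRISPR/Cas9 knock-in that changes isoleucine to valine in the second K homology domain, as in modern humans, together with silent changes for genotyping; the mice carry it on both alleles in every cell, and the line was backcrossed repeatedly. Each genotype gave 6 libraries of midbrain at the embryonic age E18.5 (in days), and 4 of midbrain and 4 of cortex on postnatal day 21 (P21), 28 libraries in all. The paper states that its RNA-seq data held male-female pairs in equal number and that siblings from heterozygous parents were used. The library titles name no sex or litter. The sources used here name no treatment, and none says whether a midbrain and a cortex library of the same number came from the same mouse.

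Heat shock proteins are chaperones that hold, fold or hand on other proteins. In an unstressed cell HSF1 is kept inactive by binding to chaperones. When unfolded proteins occupy these chaperones, HSF1 is released, forms a trimer and binds heat shock elements, which are alternating copies of GAA and its reverse complement TTC. The target genes include *Hspa1a* and *Hspa1b*, which are low in resting tissue and induced strongly by heat, while *Hspa8* and *Hsp90ab1* encode chaperones made at all times. The chaperone of the endoplasmic reticulum (ER), *Hspa5*, answers to another pathway, the unfolded protein response, through ER stress elements. Neurons are known for a high threshold for induction of the heat shock response.

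The start-site regions are shown because they differ in the elements that these 2 pathways use, and because they show how alike *Hspa1a* and *Hspa1b* are. RefSeq promoter windows (assembly GRCm38.p6) run from 250 bases before to 50 bases after a start site; 6 of the 10 genes have one, and *Hsp90aa1*, *Hsp90ab1*, *Hspa8* and *Hsf1* do not. Both strands were searched for heat shock elements of 3 units (GAANNTTCNNGAA or TTCNNGAANNTTC) or of 2 units (GAANNTTC or TTCNNGAA, which also lie inside each element of 3 units), and for the ER stress element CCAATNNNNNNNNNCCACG. Capitals mark a match, and each stretch is written 5′ to 3′ on the strand of the gene. The stretches with 2 units were added after the windows had been searched. For *Hspa1a*, *Hspa1b*, *Hspb1* and *Hspa5* the stretch ends at the base before the start site, and for *Hsph1* it lies after it.
*Hspa1a*, chr17:34972157-34972286, minus strand: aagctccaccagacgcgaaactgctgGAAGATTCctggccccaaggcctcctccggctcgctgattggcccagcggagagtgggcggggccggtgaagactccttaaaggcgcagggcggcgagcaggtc
*Hspa1b*, chr17:34959239-34959368, minus strand: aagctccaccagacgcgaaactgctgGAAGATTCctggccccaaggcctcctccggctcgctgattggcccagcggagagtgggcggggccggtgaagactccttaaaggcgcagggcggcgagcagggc
*Hspb1*, chr5:135887789-135887918, plus strand: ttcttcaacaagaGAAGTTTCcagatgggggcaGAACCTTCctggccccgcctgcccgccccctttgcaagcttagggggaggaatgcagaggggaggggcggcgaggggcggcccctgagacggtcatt
*Hsph1*, chr5:149636280-149636306, minus strand: tgcagaTTCTGGAAAGTTCtcctcagt
*Hspa5*, chr2:34771960-34772089, plus strand: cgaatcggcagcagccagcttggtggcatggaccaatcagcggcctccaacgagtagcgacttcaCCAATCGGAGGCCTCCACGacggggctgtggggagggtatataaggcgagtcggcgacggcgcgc

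Elements of 2 units lay in the windows of 4 of the 6 genes, against 15.1% of all 32851 RefSeq windows. In *Hspa1a* and in *Hspa1b* the same letters began 104 bases before the start. In *Hspb1* a pair of elements began 117 and 97 bases before it. An element of 3 units, present in 0.603% of all windows, lay only in *Hsph1* among the 6 genes, starting at base 16 or base 37 of the transcript for its listed start sites. The ER stress element, present in 0.119% of all windows, lay only in *Hspa5* among the 6, starting 65 bases before the start. No element searched lay in the *Dnajb1* window. A match of letters describes the sequence and shows no binding.

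*Hspa1a* (chr17:34969359-34972156) and *Hspa1b* (chr17:34956429-34959238) are neighbouring genes on the minus strand. Their 250 bases before the start were identical at 247 positions (98.8%). Their coding sequences were 99.4% identical, and their 5′ untranslated regions 98.7%. Their 3′ untranslated regions were 47.3% identical. Of the stretches of 100 bases along the transcripts, 47.1% of those in *Hspa1a* and 49.9% of those in *Hspa1b* occurred unchanged in the other copy. The reads were paired and, by the paper's account, longer than these stretches. The shares are therefore no measure of how many read pairs match both copies. How the counting treated reads that match both copies is not stated, so each copy's level is uncertain, and values with both copies summed are given beside them. *Hspa1a* is also overlapped on the opposite strand by the predicted gene Gm20481, and *Hspa8* holds small nucleolar RNA genes in its introns.

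Total counts per library ranged from 18550922 to 35047494 in E18.5 midbrain, from 25256326 to 45134998 in P21 midbrain and from 30423267 to 35643736 in P21 cortex. The 10 genes held 0.339% to 0.423% of them. The labelled regions bore their markers: *Emx1*, a dorsal forebrain factor, was at 25.8 to 33.1 TPM in cortex and at most 0.863 TPM in midbrain of either age, and *En1*, a midbrain factor, was at 4.74 to 16.1 TPM in midbrain and at most 0.109 TPM in cortex. P21 midbrain also held hypothalamic *Pmch*, at 147 to 200 TPM. The libraries numbered 1 of both genotypes stood apart in P21 midbrain. Their summed choroid plexus markers, *Ttr*, *Clic6*, *Folr1*, *Kl* and *Tmem72*, were 2850 and 3039 TPM against 12.2 to 1388 TPM in the other 6. The sum was 1158 to 2204 TPM in P21 cortex and 44.1 to 3658 TPM in E18.5 midbrain. Results that rest on the P21 midbrain libraries numbered 1 are given with and without them.

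The HSP90 genes, *Hspa8* and *Hspa5* lay highest and the inducible HSP70 copies and *Hspb1* lowest in each tissue. Levels are given as TPM, transcript levels that are scaled by exon length and so can be compared between genes. *Hsp90ab1* (chr17:45567778-45573261), the constitutive cytosolic HSP90, was highest in all 3 tissues, with medians of 1800 TPM in E18.5 midbrain, 1676 TPM in P21 midbrain and 1547 TPM in P21 cortex. *Hspa8* (chr9:40801276-40805202), the constitutive HSC70 that also uncoats clathrin vesicles, followed with medians of 983, 1020 and 748 TPM. *Hsp90aa1* (chr12:110691036-110696395), the more inducible cytosolic HSP90, came next with 847, 809 and 706 TPM. The ranges of *Hspa8* and *Hsp90aa1* overlapped in E18.5 midbrain and in P21 cortex but not in P21 midbrain.

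*Hspa5* (chr2:34772090-34776529), which encodes the ER chaperone BiP, came after these in each tissue, with medians of 376, 396 and 290 TPM. *Hsph1* (chr5:149616843-149636498), an HSP110 that exchanges nucleotide on HSP70, followed with 89.9, 135 and 128 TPM. *Hsf1* (chr15:76477362-76501155), the heat shock transcription factor, had medians of 48.7, 52.3 and 56.5 TPM. *Dnajb1* (chr8:83608175-83612653), an HSP40 that delivers substrates to HSP70, had 36.3, 54.2 and 51.9 TPM. These last 2 genes overlapped in every tissue, so their order was not resolved.

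The lowest 3 genes in every tissue were the 2 inducible HSP70 copies and *Hspb1* (chr5:135887919-135889563), the small heat shock protein HSP27, which holds unfolded proteins without ATP. In E18.5 midbrain the medians were 6.42 TPM for *Hspa1a*, 3.71 TPM for *Hspa1b* and 3.26 TPM for *Hspb1*. At P21 *Hspb1* came first of the 3, with a median of 9.66 TPM in midbrain and 5.51 TPM in cortex, against 4.01 and 3.47 TPM for *Hspa1a* and 3.60 and 2.90 TPM for *Hspa1b*. Each of these neighbours overlapped in range. Counts for *Hspb1* at E18.5 were only 11 to 39 per library, and those for *Hspa1b* over all 28 libraries were 43 to 238, so counting error weighs most on these genes.

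**Figure D1:**
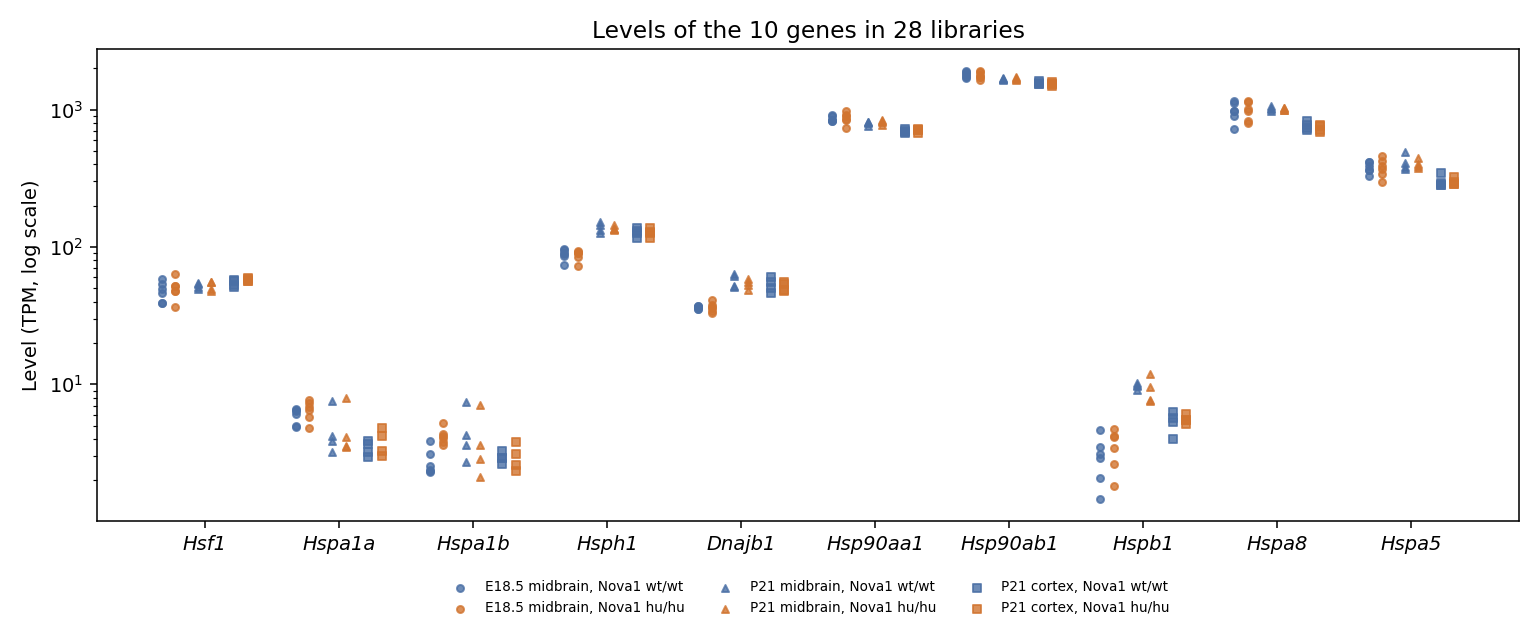
Level of each of the 10 genes (TPM, log scale) in every library; circles are E18.5 midbrain, triangles P21 midbrain and squares P21 cortex, blue for *Nova1* wt/wt and orange for *Nova1* hu/hu. *Hsp90ab1* lies highest in each tissue, and *Hspa1a*, *Hspa1b* and *Hspb1* lie lowest, between 1.45 and 11.9 TPM.

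In E18.5 midbrain, the contrast on which the genes were selected, *Hspa1b* had the largest genotype difference of the 10. Its levels in the *Nova1* hu/hu group ran from 3.64 to 5.21 TPM (median 4.12, n = 6) and in *Nova1* wt/wt mice from 2.30 to 3.85 TPM (median 2.46, n = 6). The *Nova1* hu/hu library was the higher one in 6 of 6 same-numbered pairs, but the groups overlapped, because *Nova1* wt/wt replicate 6 lay at 3.85 TPM, above 2 *Nova1* hu/hu libraries. The log2 fold change was 0.60 (SE 0.152). These levels rest on 63 to 126 counts per *Nova1* hu/hu library and 43 to 80 per *Nova1* wt/wt library.

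The near-identical copy *Hspa1a* differed less. It ranged from 4.84 to 7.65 TPM in the *Nova1* hu/hu group (median 6.62) and from 4.88 to 6.59 TPM in *Nova1* wt/wt mice (median 6.22), with a log2 fold change of 0.13 (SE 0.127) and the *Nova1* hu/hu library higher in 4 of 6 pairs. With the counts of both copies summed the log2 fold change was 0.30 (SE 0.115). For *Hspb1* it was 0.23 (SE 0.269) and for *Hsf1* 0.06 (SE 0.111). For the other 6 genes, which include all chaperones of high level, it lay between −0.03 and 0.01.

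**Figure D2:**
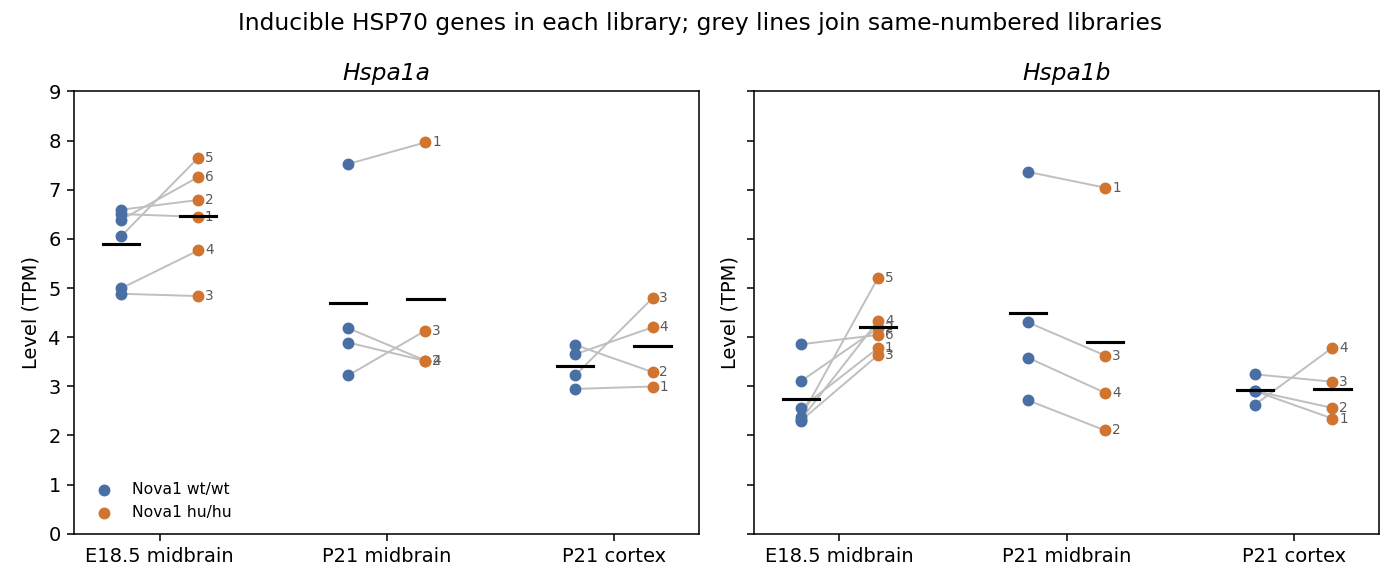
Levels of *Hspa1a* (left) and *Hspa1b* (right) in TPM in each library, blue for *Nova1* wt/wt and orange for *Nova1* hu/hu, with a black bar at the group mean, a grey line joining same-numbered libraries and the replicate number at its right end. In P21 midbrain both libraries numbered 1 lie above 7 TPM for both genes, and every other P21 library lies below 5 TPM.

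At P21 none of the 10 genes was called between genotypes in midbrain, where edgeR (quasi-likelihood test, Benjamini-Hochberg adjusted) called 0% of 15972 genes, nor in cortex, where it called 0% of 15767. A gene was called at p under 0.05 and adjusted p under 0.1. Before adjustment 426 genes in midbrain and 450 in cortex had p under 0.05, none of them among the 10. DESeq2 called 1 gene in midbrain and 0 in cortex, and edgeR with the replicate number as a block called 4 and 0; none of these calls fell on the 10 genes.

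*Hspa1b* in P21 midbrain was at 7.04, 2.10, 3.63 and 2.87 TPM in *Nova1* hu/hu replicates 1 to 4. In *Nova1* wt/wt replicates 1 to 4 it was at 7.36, 2.72, 4.30 and 3.58 TPM. The *Nova1* hu/hu library was the lower one in 4 of 4 same-numbered pairs, opposite to E18.5, while the groups overlapped almost entirely. The log2 fold change was −0.18 (SE 0.326, 95% interval −0.88 to 0.51) and an exact permutation test of log2 CPM gave p = 0.6 (two-sided). With the replicate number as a block the SE fell to 0.131 around a log2 fold change of −0.23, and the gene was still not called (edgeR, adjusted p = 0.999). One library could turn the direction, since the log2 fold change was −0.63 without *Nova1* hu/hu replicate 1 and 0.14 without *Nova1* wt/wt replicate 1; without both it was −0.31 (SE 0.228).

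*Hspa1a* in P21 midbrain was at 7.96, 3.52, 4.13 and 3.52 TPM in *Nova1* hu/hu replicates 1 to 4 and at 7.52, 3.89, 3.22 and 4.18 TPM in *Nova1* wt/wt replicates. Its log2 fold change was 0.04 (SE 0.271), and −0.31 or 0.34 without *Nova1* hu/hu replicate 1 or *Nova1* wt/wt replicate 1. The other 8 genes had log2 fold changes of −0.08 to 0.03. Over all 10 genes the lowest exact permutation p was 0.343, and every p adjusted over the 20 tests at P21 was 1; 4 libraries against 4 cannot give an exact p below 0.0286.

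In P21 cortex *Hspa1b* was at 2.34, 2.56, 3.09 and 3.79 TPM in *Nova1* hu/hu replicates 1 to 4 and at 2.90, 2.90, 3.24 and 2.63 TPM in *Nova1* wt/wt replicates. The groups overlapped and the log2 fold change was 0.02 (SE 0.160, 95% interval −0.32 to 0.36), or −0.0039 on the log2 TPM scale. The differences between the genotype contrasts of the 3 tissues were not tested. *Hspa1a* had a log2 fold change of 0.17 (SE 0.156). *Hsf1* was higher in *Nova1* hu/hu in 4 of 4 pairs, with a log2 fold change of 0.08 (SE 0.049) and an exact permutation p of 0.114, adjusted 1. The remaining 7 genes lay between −0.04 and 0.06.

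Whether *Hspa1b* moves with the other heat shock genes was asked within each tissue, after the mean of each genotype had been subtracted from log2 CPM. Each of the other 9 genes was correlated with *Hspa1b* in each of 3 tissues, 27 tests in all, with libraries permuted within genotype; same-numbered libraries vary together, so they are not fully independent. The near-identical copy *Hspa1a* correlated positively in each tissue. In E18.5 midbrain Pearson's r was 0.63 and Spearman's rho 0.73 (permutation p = 0.0282 and 0.0105, adjusted 0.281 and 0.141, n = 12), and r was 0.58 without the 2 libraries farthest from the median of *Hspa1b*. In P21 midbrain r was 0.87 and rho 0.64 (exact permutation p = 0.0312 and 0.128, adjusted 0.281 and 0.578, n = 8). There r was 0.02 without both libraries numbered 1, so the relation rested on them.

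In P21 cortex r between *Hspa1a* and *Hspa1b* was 0.54 and rho 0.53 (exact permutation p = 0.325 and 0.306, adjusted 0.638 and 0.609, n = 8), and r was 0.33 without the 2 farthest libraries. None of these 3 correlations passed the adjusted threshold. Since reads from the shared sequence can be given to either copy, a correlation between the copies and a split of the same reads cannot be told apart.

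Of the other genes, only *Hspa5* in P21 midbrain passed, with r = 0.91 and rho = 0.88 (exact permutation p = 0.0017 and 0.0035, adjusted 0.0469 and 0.0938, n = 8). *Hspa5* was at 443, 374, 401 and 390 TPM in *Nova1* hu/hu replicates 1 to 4 and at 493, 370, 411 and 382 TPM in *Nova1* wt/wt replicates, so the libraries numbered 1 were highest for this gene too. Without them r was 0.90 over 6 libraries (exact permutation p = 0.056, adjusted 0.281). With any 1 of the 8 libraries left out r stayed at 0.889 to 0.951, and it passed the adjusted threshold only without *Nova1* wt/wt replicate 1 (adjusted p = 0.0938; up to 0.188 without another). With the mean of each same-numbered pair also removed, r was −0.97 over 4 pairs, so the positive relation lay between the pairs and not within them. In E18.5 midbrain r was 0.33 and in cortex 0.29.

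The classic heat shock partners of HSP70 did not pass. For *Hsph1*, *Dnajb1*, *Hsp90aa1*, *Hsp90ab1*, *Hspb1*, *Hspa8* and *Hsf1* in 3 tissues, 21 correlations, r ranged from −0.65 to 0.69 and the lowest adjusted permutation p was 0.464. *Dnajb1* had r = 0.69 in P21 midbrain, 0.01 in cortex and −0.11 at E18.5. *Hsph1*, which holds the element of 3 units, had 0.33, 0.09 and 0.45. *Hsf1* itself had −0.62, −0.32 and 0.43. The P21 midbrain values include both libraries numbered 1, where *Hspa1b* was high. Their weight shows over all 28 libraries, with the mean of each group removed. Without both, r with *Hspa1b* went from 0.31 to 0.04 for *Dnajb1* and from 0.27 to 0.36 for *Hsph1*. For *Hsf1* it went from −0.0016 to 0.21.

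The libraries numbered 1 of P21 midbrain were high for some of the 10 genes and not for others. In the mean of both libraries less the mean of the other 6, *Hspa1b* was higher by 1.17 and *Hspa1a* by 1.02 on the log2 CPM scale, which placed them 39th and 59th of 15972 genes. *Hspa5* was higher by 0.25 and *Dnajb1* by 0.18. The other 6 genes lay between −0.17 and 0.04, among them *Hsph1* at 0.04. The 5 choroid plexus markers were higher by a median of 2.17 in the same libraries, and *Ttr*, which carries thyroid hormone in cerebrospinal fluid, was at 2805 and 2994 TPM against 9.02 to 1367 TPM elsewhere in P21 midbrain; their part in the *Hspa1a* and *Hspa1b* levels was not tested. In E18.5 midbrain the summed markers ranged from 44.1 to 3658 TPM, *Hspa1a* from 4.84 to 7.65 TPM and *Hspa1b* from 2.30 to 5.21 TPM. A relation between them was not tested there either.

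At E18.5 low values of several of the 10 genes fell in the same libraries. Both libraries numbered 3 held the lowest *Hsph1*, *Hspa8* and *Hspa5* of their genotype. *Hsph1* was at 72.5 and 74.3 TPM there against 85.1 to 97.1 TPM in the other 10 libraries. *Hspa8* was at 797 and 722 TPM against 832 to 1152 TPM, and *Hspa5* at 300 and 328 TPM against 341 to 462 TPM. *Hspa1b* was at 3.64 and 2.30 TPM in these libraries, again the lowest of each genotype, and *Hspa1a* at 4.84 and 4.88 TPM was as well. The *Hspa1b* order in *Nova1* wt/wt mice is not resolved, since replicates 4 and 5 lay at 2.32 and 2.37 TPM. These levels rest on 53, 43 and 50 counts in replicates 3, 4 and 5. *Hsp90ab1* went the other way, at 1913 and 1915 TPM the highest of each genotype. *Hspb1* was highest of *Nova1* wt/wt mice in replicate 3, at 4.62 TPM. In *Nova1* hu/hu mice only replicate 2, at 4.69 TPM, exceeded replicate 3. *Dnajb1*, *Hsp90aa1* and *Hsf1* were not lowest there.

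**Figure D3:**
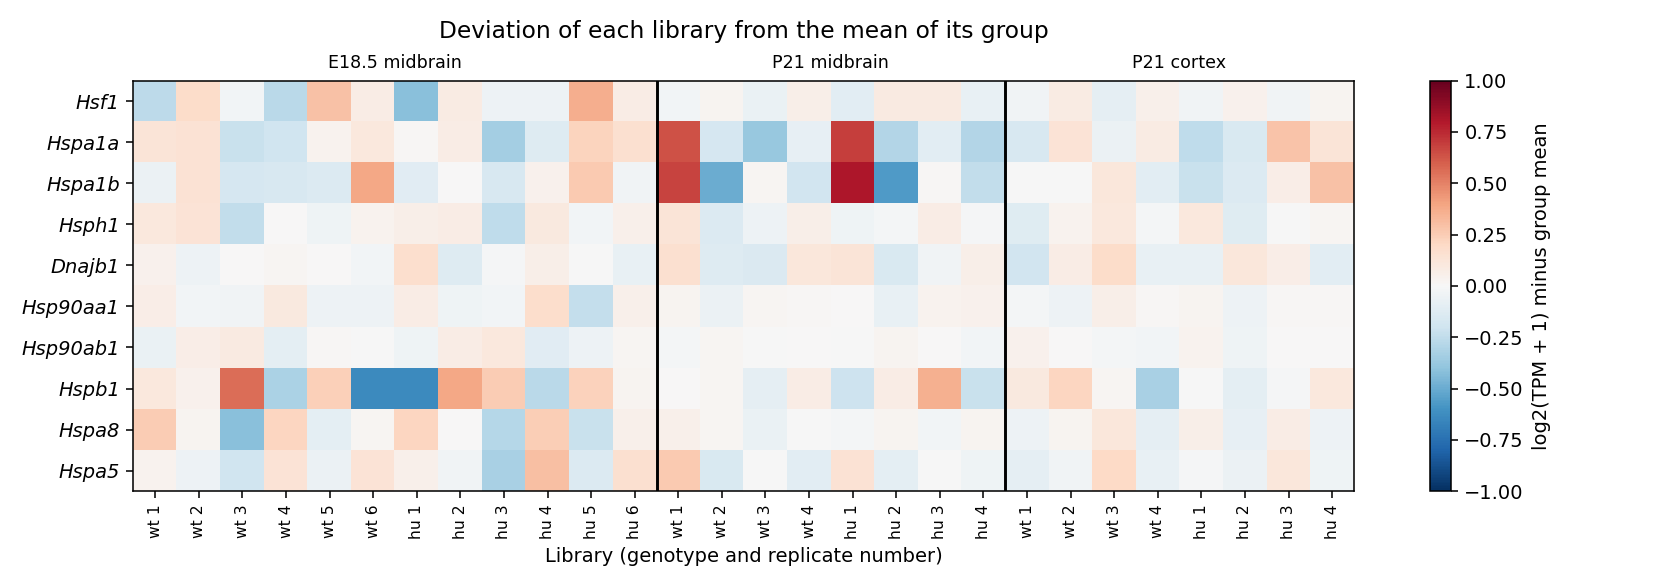
Deviation of each library from the mean of its group, as log2(TPM + 1), for the 10 genes (rows) in 28 libraries (columns); red is above and blue below the group mean. The libraries numbered 1 of P21 midbrain are red for *Hspa1a* and *Hspa1b* in both genotypes, while *Hsp90aa1* and *Hsp90ab1* stay pale.

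Over all 28 libraries, with the mean of each of the 6 groups removed, the gene most like *Hspa1b* of 16804 ranked was *Hspa1a*, with r = 0.79. Next came *Alpl*, the tissue-nonspecific alkaline phosphatase, at 0.71, *Wdr86* at 0.70 and *Ppp1r3b*, a glycogen-targeting subunit of protein phosphatase 1, at 0.70. Without both P21 midbrain libraries numbered 1 these r were 0.45, 0.46, 0.34 and 0.57, and *Hspa1a* ranked 279th, so its place as the gene most like *Hspa1b* rested on those libraries. With all 28 libraries the heat shock genes ranked lower: *Hspa5* 116th, *Dnajb1* 1019th, *Hsph1* 1491st, *Hspa8* 7058th, *Hsp90aa1* 8454th, *Hsf1* 8699th, *Hspb1* 14493rd and *Hsp90ab1* 16020th. Without both libraries *Hsph1* ranked 834th, *Hspa5* 977th, *Hsf1* 2910th, *Hspa8* 6331st, *Dnajb1* 7368th, *Hsp90aa1* 8706th, *Hspb1* 13366th and *Hsp90ab1* 15120th. Over all 28 libraries the median r of all ranked genes was 0.007, with 5% of genes below −0.32 and 5% above 0.33. These values describe the libraries and were not tested.

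With age, 9 of the 10 genes rose from E18.5 to P21 in midbrain on the TMM scale and 1, *Hspa1a*, was not called, while 3 rose and 3 fell on the log2 TPM scale. The first count is read against a background in which edgeR's quasi-likelihood test called 85.6% of 16330 genes, and no source says that the ages were prepared as 1 set, so age and library set cannot be told apart. Only *Hspb1* rose at least 2-fold, while 30.6% of all genes were called with at least that change in either direction. Of all genes 6919 rose and 7064 fell on the TMM scale, and 5555 and 8526 on the log2 TPM scale. The median log2 fold change was 0.30 over the 10 genes and −0.02 over all genes.

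*Hspb1* rose most, from 1.45 to 4.69 TPM (median 3.26, n = 12) at E18.5 to 7.68, 9.57, 11.9 and 7.59 TPM in *Nova1* hu/hu and 9.76, 9.86, 9.06 and 10.3 TPM in *Nova1* wt/wt mice at P21. The ages did not overlap, and the log2 fold change was 1.75 (SE 0.157, edgeR adjusted p = 9.88e-11). *Hsph1* rose from 72.5 to 97.1 TPM (median 89.9) to 126 to 152 TPM (median 135), a log2 fold change of 0.85 (SE 0.053, edgeR adjusted p = 4.99e-14). *Dnajb1* rose from 33.1 to 41.1 TPM (median 36.3) to 48.4 to 63.6 TPM (median 54.2), a log2 fold change of 0.81 (SE 0.050, edgeR adjusted p = 4.97e-14). For these 3 genes every P21 library lay above every E18.5 library, and the other 7 overlapped. How many of all genes lay apart in this way was not counted, so nothing is read from this count.

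The remaining changes were small and depended on how libraries were scaled. On the TMM scale *Hspa5* rose by a log2 fold change of 0.31 (SE 0.073), *Hsf1* by 0.29 (SE 0.074), *Hspa8* by 0.25 (SE 0.078), *Hsp90ab1* by 0.11 (SE 0.028) and *Hsp90aa1* by 0.10 (SE 0.046), with edgeR adjusted p of 4.23e-04, 7.32e-04, 0.00492, 6.94e-04 and 0.0574. On the log2 TPM scale the median of all genes moved to −0.20. There *Hspb1* (1.48), *Hsph1* (0.65) and *Dnajb1* (0.60) still rose, while *Hsp90aa1* (−0.10) and *Hsp90ab1* (−0.09) turned and fell (limma adjusted p = 0.024 and 0.0174). *Hspa5*, *Hsf1* and *Hspa8*, at 0.11, 0.11 and 0.07, were not called on that scale. The *Hsp90aa1* call was also lost, with an unadjusted p of 0.05 or more, when any of 13 of the 20 libraries was left out, the P21 midbrain libraries numbered 1, 3 and 4 of both genotypes among them (log2 fold change 0.07 to 0.12 over the 20 omissions). Relative to the median of all genes both HSP90 genes lay near 0.1 above it on either scale.

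The inducible copies gave unlike values with age, and the difference between them was not tested. *Hspa1b* rose by a log2 fold change of 0.48 (SE 0.201, edgeR adjusted p = 0.0309), but this call rested on the libraries numbered 1 of P21 midbrain. It was 0.33 (adjusted p = 0.136) without the *Nova1* hu/hu one, 0.30 (adjusted p = 0.117) without the *Nova1* wt/wt one and 0.11 (adjusted p = 0.530) without both. *Hspa1a* had a log2 fold change of −0.19 (SE 0.152, adjusted p = 0.243), which became −0.35 (adjusted p = 0.0241) and −0.32 (adjusted p = 0.0365) without either and −0.51 (adjusted p = 1.13e-04) without both, so that it then fell. On the log2 TPM scale *Hspa1a* also fell, by 0.41 (limma adjusted p = 0.0107), and *Hspa1b* was at 0.18 (adjusted p = 0.368). With both copies summed the log2 fold change was 0.09 (SE 0.160, adjusted p = 0.620).

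Markers of cell types changed with age too. The oligodendrocyte marker *Mbp*, myelin basic protein, went from a median of 17.4 TPM at E18.5 to a median of 5426 TPM (5231 to 5939 TPM) in P21 midbrain, and *Mog* from 20.5 to 27.6 TPM to 943 to 1068 TPM. Summed astrocyte markers went from 397 to 569 TPM to 834 to 890 TPM, and progenitor markers from 198 to 253 TPM to 49.4 to 67.9 TPM. The astrocyte markers did not move as 1 set. Medians rose for *Gfap* (11.6 to 282 TPM), *Aqp4* (37.2 to 138 TPM) and *Gja1* (95.3 to 182 TPM). *Slc1a3* was near level (128 to 131 TPM), and *Aldh1l1* fell (183 to 140 TPM). In bulk tissue fewer cells of a type and less RNA per cell cannot be told apart, and the part of these cell types in the chaperone levels was not tested.

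**Figure D4:**
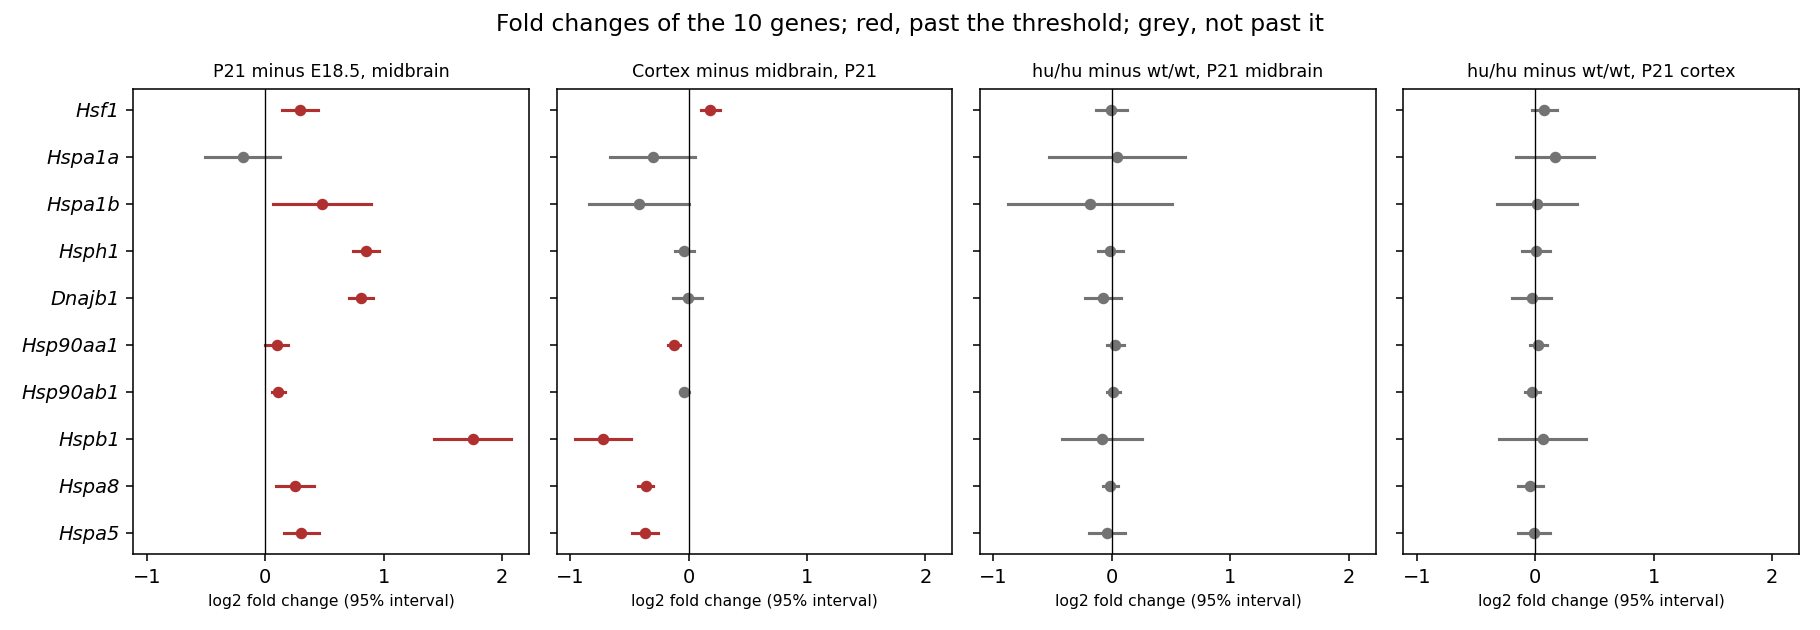
Log2 fold change of each gene with its 95% interval (edgeR) for age, region and genotype at P21 in midbrain and cortex; red marks genes past the threshold and grey those not past it. With age *Hspb1* lies farthest to the right at 1.75, and both genotype panels hold no red gene.

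Other chaperone genes are given by list, beside the 85.6% of all genes called with age, of which 6919 rose and 7064 fell. In the HSP70 and HSP110 family 9 of 15 genes rose and 2 fell (median log2 fold change 0.31; 6 and 5 on the log2 TPM scale), and *Hspa2*, a testis-rich HSP70, rose by 2.06 and *Hspa4l*, an HSP110, by 1.40. In the HSP40 family 12 of 16 rose and 3 fell (median 0.61; 10 and 3 on the log2 TPM scale), with *Dnaja4* at 1.78 and *Dnajb2*, a neuronal HSP40, at 1.35. All 4 small heat shock genes that passed the filter, of 8 listed, rose (median 1.80). Among them *Cryab*, the alpha-B crystallin of glia and lens, rose from 4.34 to 11.9 TPM to 254 to 330 TPM, a log2 fold change of 5.69 (SE 0.106, edgeR adjusted p = 3.32e-25). *Hspb8*, which works with the co-chaperone BAG3, rose by 1.84, and *Bag3* itself by 2.33.

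The chaperonin TRiC, the ring that folds actin and tubulin, went the other way: all 8 subunit genes fell, with a median log2 fold change of −0.46, and on the log2 TPM scale all 8 fell as well. In the HSP90 family and its co-chaperones 7 of 14 rose and 5 fell (median 0.10), but 4 rose and 8 fell on the log2 TPM scale (median −0.10); *Stip1*, which links HSP70 to HSP90, rose by 1.04. Among heat shock factors and regulators 2 of 5 rose and 2 fell (median 0.29; 1 and 2 on the log2 TPM scale), with *Hsf4*, the factor of lens, at 4.29 and *Hsf2*, a developmental factor, at −1.05. Of 9 nucleotide exchange and ubiquitin co-chaperones 7 rose and 2 fell (median 0.23; 3 and 2 on the log2 TPM scale).

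Of 20 ER chaperones and unfolded protein response genes, *Hspa5* included, 12 rose and 3 fell (median 0.31; 10 and 7 on the log2 TPM scale). *Sdf2l1*, an ER cofactor of BiP, rose by 1.62 and *Herpud1*, of ER-associated degradation, by 1.55, while *Serpinh1*, the collagen chaperone HSP47, fell by 1.09. Of 6 mitochondrial chaperones 5 rose and 0 fell (median 0.39; 4 and 1 on the log2 TPM scale). Immediate early genes, which handling can also induce, were listed beside them, and 9 of 13 rose and 2 fell (median 0.80; 8 and 2 on the log2 TPM scale), with *Arc* at 3.51. *Egr4* and *Fosb*, both counted among the 9, passed the filter on low counts only through the P21 libraries, and *Egr4* was at 0 to 0.268 TPM at E18.5 and 0.620 to 1.64 TPM at P21, so no fold is given for it. Between genotypes at P21 none of these genes was called in any list.

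Between regions at P21, 1 of the 10 genes was higher in cortex than in midbrain, 4 were lower and 5 were not called, where edgeR called 75.6% of 16345 genes. None of the 10 differed by at least 2-fold, against 15.4% of all genes. The median log2 fold change of cortex over midbrain was −0.21 for the 10 genes and −6.3e-04 for all genes. *Hspa8*, *Hsp90aa1*, *Hspa5* and *Hspb1* were lower in cortex and the factor *Hsf1* was higher.

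*Hspb1* was at 5.53, 5.12, 5.50 and 6.03 TPM in cortex of *Nova1* hu/hu and 5.69, 6.25, 5.35 and 3.99 TPM in cortex of *Nova1* wt/wt mice, below every midbrain library, a log2 fold change of −0.72 (SE 0.114, edgeR adjusted p = 4.39e-06). *Hspa5* was at 282 to 344 TPM in cortex and 370 to 493 TPM in midbrain (log2 fold change −0.37, SE 0.053, adjusted p = 9.71e-07). *Hspa8* was at 692 to 820 TPM against 976 to 1058 TPM (−0.36, SE 0.032, adjusted p = 2.65e-10). *Hsp90aa1* was at 670 to 723 TPM against 764 to 835 TPM (−0.12, SE 0.024, adjusted p = 7.16e-05). Cortex and midbrain did not overlap for any of these 4. How many of all genes lay apart between regions was not counted, so nothing is read from this, here or for *Hsp90ab1* below.

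*Hsf1* was higher in cortex, at 51.2 to 59.2 TPM against 48.0 to 55.1 TPM, a log2 fold change of 0.19 (SE 0.039, edgeR adjusted p = 1.66e-04) with overlapping ranges. *Hsph1*, *Hsp90ab1* and *Dnajb1* had log2 fold changes of −0.03, −0.03 and −0.01 and were not called, although *Hsp90ab1* did not overlap in TPM, at 1491 to 1614 against 1648 to 1719. On the log2 TPM scale, where the median of all genes was −0.07, *Hsp90ab1* (−0.11) and *Hsph1* (−0.11) were also lower in cortex, so 6 genes were lower and 1 higher. *Hspa1b* (−0.42, SE 0.204, adjusted p = 0.0681, unadjusted 0.0516) and *Hspa1a* (−0.30, SE 0.173, adjusted p = 0.119) were not called. *Hspa1b* passed without *Nova1* hu/hu midbrain replicates 2 (−0.53) or 4 (−0.48), *Nova1* wt/wt midbrain replicates 2 (−0.49) or 4 (−0.46) or *Nova1* hu/hu cortex replicate 4 (−0.49), and *Hspa1a* without *Nova1* hu/hu midbrain replicates 2 (−0.37) or 4 (−0.36) or *Nova1* wt/wt midbrain replicate 3 (−0.36). Without both P21 midbrain libraries numbered 1 they were at −0.04 and 0.02.

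Most chaperone lists held more genes that were lower in cortex than higher, where 6169 of all genes were higher and 6194 lower (5217 and 7174 on the log2 TPM scale). In the HSP70 and HSP110 family 3 of 15 genes were higher and 9 lower in cortex (median −0.30), with *Hspa4l* at −1.10. In the HSP40 family 3 of 16 were higher and 8 lower (median −0.06), and *Dnajb5* was higher by 1.79. In the HSP90 list 2 of 14 were higher and 11 lower (median −0.23), and in the ER list 4 of 20 and 11 (median −0.27). All 8 TRiC genes were lower (median −0.29), as were 4 of 6 mitochondrial chaperones with 0 higher (median −0.19).

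Among 6 small heat shock genes tested 1 was higher and 4 lower (median −0.47). The higher one, *Hspb3*, a muscle-type small heat shock protein, was at 3.32 to 7.11 TPM in cortex and 0.262 to 0.715 TPM in midbrain; it passed the filter on low counts only through cortex, where it is high, so no fold is given and nothing is read from its call. Of heat shock factors and regulators 2 of 5 were higher and 1 lower, *Hsf4* at −1.72. Of the exchange and ubiquitin co-chaperones 6 of 9 were higher and 2 lower (median 0.19), *Bag3* at −1.50. Immediate early genes were higher in cortex in 11 of 14 and lower in 0 (median 2.16). *Egr3*, counted among the 11, passed the filter only through cortex. *Egr4* was at 10.6 to 29.6 TPM in cortex but only 0.620 to 1.64 TPM in midbrain, so no fold is given for it. The oligodendrocyte marker *Mbp* was at 1486 to 1755 TPM in cortex against 5231 to 5939 TPM in midbrain. Neuron markers summed to 4076 to 4400 TPM in cortex against 3502 to 3879 TPM in midbrain. Among them *Tubb3* went the other way, with a median of 584 TPM in cortex against 748 TPM in midbrain. The part of these cell types in the differences between regions was not tested.

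The share of the counts of both inducible copies that was given to *Hspa1b* does not depend on library size. In E18.5 midbrain it was 35.9% to 43.0% in *Nova1* hu/hu mice (mean 39.6% ± 3.05, SD, n = 6) and 28.2% to 37.7% in *Nova1* wt/wt mice (31.7% ± 3.47, n = 6), a contrast that the choice of genes used. In P21 midbrain it was 37.5% to 47.0% (44.1% ± 4.49, n = 4) and 41.2% to 57.3% (48.6% ± 6.75, n = 4). In P21 cortex it was 39.3% to 47.5% (43.7% ± 3.36, n = 4) and 42.0% to 50.2% (46.3% ± 4.32, n = 4). In *Nova1* wt/wt mice the E18.5 and P21 midbrain libraries did not overlap, and in *Nova1* hu/hu mice they did. The choice of genes used these E18.5 values, and the difference was not tested, so nothing is read from it. The *Nova1* wt/wt group of E18.5 midbrain, the low side of the contrast that chose the gene, had the lowest mean share of the 6 groups.

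**Figure D5:**
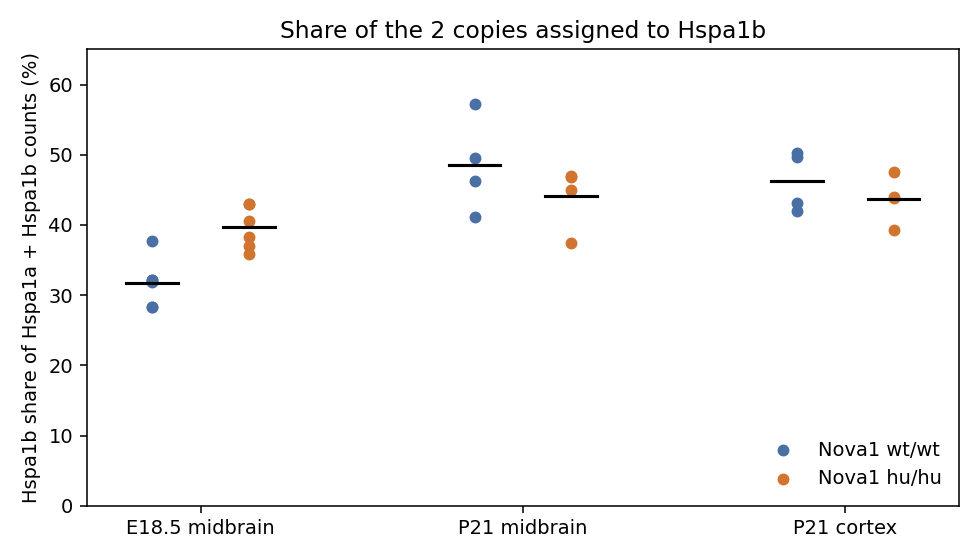
*Hspa1b* share of the summed *Hspa1a* and *Hspa1b* counts (percent) in each library, blue for *Nova1* wt/wt and orange for *Nova1* hu/hu, with a black bar at the group mean. The *Nova1* wt/wt group of E18.5 midbrain is lowest, with a mean of 31.7%, and the other 5 group means lie between 39.6% and 48.6%.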

How the data were processed

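RNA was extracted with Trizol, polyadenylated RNA was selected and libraries were sequenced as paired-end reads. The authors aligned them to mm10 (GRCm38) with OLego 1.1.7 and counted them per gene with Quantas 1.0.9; the submitters' processing notes also name edgeR. The version of the gene annotation and whether counting used the strand are not given in the sources used here. For each library the authors deposited an expected count per gene that is not always whole, beside exon lengths and RPKM. The RPKM that the authors deposited can be recomputed from counts, lengths and library totals within a relative difference of 1e-09, so these values were not used further.

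The 10 genes and all gene lists were chosen with earlier results of these data known. Expected counts were rounded for the tests, and TPM was taken from the counts as deposited, divided by exon length. R 4.3.3 with edgeR 4.0.16 (quasi-likelihood test, TMM factors, filterByExpr) was fitted to all genes of each comparison: genotype within each age and region, and age and region with genotype as a covariate. A gene was called at p under 0.05 and Benjamini-Hochberg adjusted p under 0.1, and a second rule added a 2-fold change. Tests were two-sided. A prior count of 2 was added for log2 CPM. Single genes and correlations were tested by permutation (scipy 1.17.1, Python 3.11.15); identities came from Biopython 1.88 and figures from matplotlib 3.10.9. The fits were tested on simulated counts with 200 changed genes.

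The labels number the libraries as replicates without naming the mice, and p-values cover the spread between them; precision for *Hspa1a*, *Hspa1b* and *Hspb1* is limited by counts of 11 to 268 per library. Replicate numbers paired the libraries between genotypes: deviations from the genotype mean of same-numbered libraries correlated at r from 0.171 up to 0.391 (E18.5), from 0.201 up to 0.235 (P21 midbrain) and from 0.170 up to 0.246 (cortex), against medians of −0.073, −0.094 and −0.109 for other pairs. This pairing by number comes from the data, and the labels do not say what a number marks. Whether it follows the sexes or litters that the paper mentions was not tested. Across ages same-numbered libraries correlated at −0.145 to 0.147. Between midbrain and cortex they correlated at −0.201 to −0.102, against a median of 0.103 for other pairs, so the numbers did not pair these libraries by the criterion used (r over 0.1 in every pair), although all 8 values were negative.

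Alternatives were RLE factors, DESeq2 1.42.0, no filter, the replicate number as a block, both *Hspa1* copies summed, log2(TPM + 1) for correlations and each library left out in turn. Between regions the block was the replicate number within each genotype. Leaving out both P21 midbrain libraries numbered 1, and limma 3.58.1 with trend on log2(TPM + 0.5), were added after the data had been seen. Named genes were the 10 genes, from each list up to 2 genes with the largest rise and 2 with the largest fall among those called with at least a 2-fold change with age or region, and the 5 genes most like *Hspa1b*, of which 1 is not reported here. Cerebellum and knockout libraries were not analysed here.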

Additional observations from a re-analysis of the deposited data

Results flagged for a closer look

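In P21 midbrain of *Nova1* hu/hu mice the library numbered 1 lay apart for *Hspa1a*, at 7.96 TPM against 3.52 to 4.13 TPM in the other 3. In E18.5 midbrain of *Nova1* hu/hu mice the library numbered 3 lay apart for *Hsph1*, at 72.5 TPM against 85.1 to 92.6 TPM in the other 5. In P21 cortex of *Nova1* wt/wt mice the library numbered 3 lay apart for *Hspa5*, at 344 TPM against 282 to 292 TPM. The criterion was Dixon's test of the gap to the nearest library over the range of the group; 60 groups of values were tested, and chance marks about 1 in 20 of them.

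The genotype difference of *Hspa1b* (mean log2 CPM of *Nova1* hu/hu less *Nova1* wt/wt) was higher by 0.84 in E18.5 midbrain than in P21 midbrain. The *Nova1* hu/hu library was the higher of its pair in 6 of 6 pairs at E18.5 and the lower in 4 of 4 pairs at P21. The genes were chosen on the E18.5 contrast, and this difference between ages was not tested.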

How the results depend on the processing

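No count of called genes among the 10 moved by over 1.5 times for genotype at P21, age or region under any alternative run: 0 for both genotype contrasts, 6 to 9 for age and 5 to 7 for region. These counts pool both directions, and the directions with age did depend on the scale. On the TMM scale 9 rose and 0 fell, on the log2 TPM scale 3 rose and 3 fell, and only 3 rose on both. With the replicate block, *Hspa1b* in P21 midbrain stayed uncalled at −0.23. With age *Hsp90aa1* was lost (0.07, edgeR adjusted p = 0.104), and the block changed no other call of the 10 genes. Same-numbered libraries were not paired across ages or between regions by the criterion used, so there the block is no check of the calls. The number of correlations with *Hspa1b* past the adjusted threshold was 1, and it was 0 with the replicate block, without the 2 farthest libraries, with both copies summed and without both P21 midbrain libraries numbered 1, and 0 to 2 with 1 library left out. With the replicate block r of *Hspa1b* with *Hspa5* was −0.15 at E18.5, −0.97 in midbrain at P21 and −0.014 in cortex; in cortex it ran from −0.025 to 0.78 with 1 library left out.

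These fold changes turned in sign, or differed in sign from *Hspa1a* alone where the copies were summed. The cause was not tested for any of them. For genotype in P21 midbrain the summed copies were at −0.066. Without both libraries numbered 1 *Hspa1a* was at −0.018, *Hsph1* at 0.048, *Hspa8* at 0.012, *Hspa5* at 0.0088 and *Hsf1* at 0.022. For genotype in cortex *Hspa1b* was at −0.0039 on the log2 TPM scale. With age the summed copies were at 0.086, and on the log2 TPM scale *Hsp90aa1* was at −0.10 and *Hsp90ab1* at −0.092. Between regions, without both libraries numbered 1, *Hspa1a* was at 0.020 and *Dnajb1* at 0.036.

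With 1 library left out, genotype values in P21 midbrain ran from −0.31 to 0.34 for *Hspa1a*, −0.63 to 0.14 for *Hspa1b*, −0.052 to 0.029 for *Hsph1*, −0.0017 to 0.025 for *Hsp90ab1*, −0.032 to 2.7e-04 for *Hspa8*, −0.083 to 0.053 for *Hspa5* and −0.040 to 0.034 for *Hsf1*. In P21 cortex they ran from −0.12 to 0.10 for *Hspa1b*, −0.038 to 0.050 for *Hsph1*, −0.091 to 0.045 for *Dnajb1*, −0.058 to 0.15 for *Hspb1*, −0.077 to 0.0039 for *Hspa8* and −0.051 to 0.071 for *Hspa5*. Between regions *Dnajb1* ran from −0.039 to 0.021. None of these was called. Counts per library limit *Hspb1* at E18.5 and both *Hspa1* copies.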
